A study of Mus musculus with 6 samples.

Results

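A set of 10 genes of cholesterol efflux and of the liver X receptor (LXR) pathway was followed through the cells of mouse aorta. They were listed by name, 10 of the 27998 genes in the count tables, with no threshold on measured values. They are the efflux transporters Abca1, Abcg1 and Scarb1, the lipoprotein proteins Apoe and Pltp, the receptors Nr1h2 and Nr1h3, the receptor-degrading enzyme Mylip, and the lysosomal proteins Npc2 and Lipa. All 10 passed the filter on low counts in every cell class described here. Single-cell RNA came from aortas of C57B/6J mice aged 18 weeks, with 3 samples from mice on a high-fat diet and 3 from control mice on a normal diet. No transgene or deletion is named for either group. Each captured transcript was counted once by its molecular identifier (UMI).

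Macrophages that engulf lipoproteins free their cholesterol in the lysosome, where Lipa (lysosomal acid lipase) splits cholesteryl esters and Npc2 picks up the sterol for export from the organelle. Excess sterol is partly turned into oxysterols, which are ligands of the 2 LXRs, Nr1h3 (LXR alpha) and Nr1h2 (LXR beta). Paired with a retinoid X receptor, LXR turns on the genes of Abca1 and Abcg1, which hand cholesterol to apolipoprotein A-I and to high-density lipoprotein (HDL), and of Apoe, Pltp and Mylip. Mylip, also called IDOL, marks lipoprotein receptors for degradation, and Scarb1 (SR-BI) is an HDL receptor that moves cholesterol in both directions. In the artery wall this pathway is best known from foam cells of atherosclerosis.

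LXR with its partner binds a direct repeat of AGGTCA with 4 bases between the copies. The RefSeq table of promoters (build GRCm38.p6) held 8 of the 10 genes. Abcg1 and Scarb1 had no entry. A search for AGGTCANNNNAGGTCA on both strands, from 250 bases before the start site to 50 after it, found a match with at most 3 mismatches among the 12 fixed letters in 1 of the 8 genes, Abca1. Such a match was present in 21.9% of 32851 windows of the same length, so the search describes the letters and cannot tell whether they are a binding site. The 150 bases before the Abca1 start site, on the minus strand at chr4:53159896-53160045, are shown because they hold this match, which is in capitals. It begins at position -67 and reads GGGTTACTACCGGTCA on the opposite strand, with 3 mismatches.
Abca1: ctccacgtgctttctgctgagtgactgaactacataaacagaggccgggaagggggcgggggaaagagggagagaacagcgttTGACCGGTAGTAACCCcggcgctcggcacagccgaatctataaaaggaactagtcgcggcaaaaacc

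The files held between 6623 and 18138 cells and between 41388034 and 83886418 UMIs per sample, with medians of 3856 to 5955 UMIs per cell, and libraries shared 26 to 127 cell barcodes. After filters 58019 of 62838 cells were kept. Cells were assigned to a class by 8 marker genes each, none of them among the 10 genes, which gave 4128 macrophages, 1932 endothelial cells, 12703 smooth muscle cells and 15626 fibroblasts. Between 20.24% and 30.45% of the cells of a class lay exactly at a limit of the marker rule. Each class's own marker list was far above its level elsewhere (macrophage markers summed to 14105 to 19517 CPM in macrophages and to at most 1073.7 CPM in the other 3 classes). This follows from the marker rule, which uses the same lists, and is no independent check of the classes. Control 1 stands apart: it supplied 98.8% of the cells of 1 smooth muscle cluster, 98.39% of 1 fibroblast cluster and 98.68% of 1 macrophage cluster, and it gave only 68 macrophages and 51 endothelial cells by markers, against 227 to 1977 and 237 to 573 in the other samples. Clusters assigned it more, with 647 macrophages and 318 endothelial cells. Control 1 also supplied 90.46% of a second smooth muscle cluster, and control 3 supplied 96.48% of another. High-fat diet 2 supplied 73.85% of a further smooth muscle cluster, so such clusters were not confined to controls. The diet results are therefore also given without control 1 and control 3 for the values that changed most. This leaves 1 control, with no spread among controls, so for single genes only effect sizes are given for it. Counts of genes called in that setting are listed with the processing, and no conclusion is drawn from them. Each sample was also left out in turn. Whether a sample is 1 animal or a pool is not stated in the labels, and p-values cover spread among samples that may be technical. Levels are given as CPM, the UMIs of a gene in all cells of a class in a sample, scaled to the same total for every sum, and a level cannot be compared between genes on this scale.

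The first question was which cells carry the pathway. Macrophages led for lipoprotein proteins, lysosomal proteins and Abca1, and endothelium led for Scarb1 and Mylip. Abcg1 was shared by macrophages and endothelium, Nr1h3 was highest in fibroblasts and endothelium, and Nr1h2 was nearly even. Each class was compared with the mean of the other 3 over the 24 sums of 4 classes and 6 samples, with the sample as a block (edgeR quasi-likelihood test, Benjamini-Hochberg adjustment over 13037 genes, threshold 0.05). In macrophages 6 of the 10 genes were higher and 1 lower, where 29.9% of all tested genes were higher and 35% lower. Endothelium had 4 higher and 3 lower, where 24.6% and 27.9% of all genes were so. Smooth muscle had 1 higher and 9 lower, where 31% and 30.2% were so, and fibroblasts had 2 higher and 6 lower, where 29.5% and 29.4% were so. Between single pairs of classes, 47 of 60 comparisons of these genes passed, where all genes passed at 52.7% for macrophages against endothelium, 65.5% against smooth muscle and 63.2% against fibroblasts, 55.7% for endothelium against smooth muscle, 52.7% against fibroblasts, and 53.1% for smooth muscle against fibroblasts. The endothelial sums were scaled by a factor whose mean was 0.16 on the log2 scale and the other classes by factors of -0.09 to -0.01, which the log2 differences include and the CPM values do not.

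**Figure D1:**
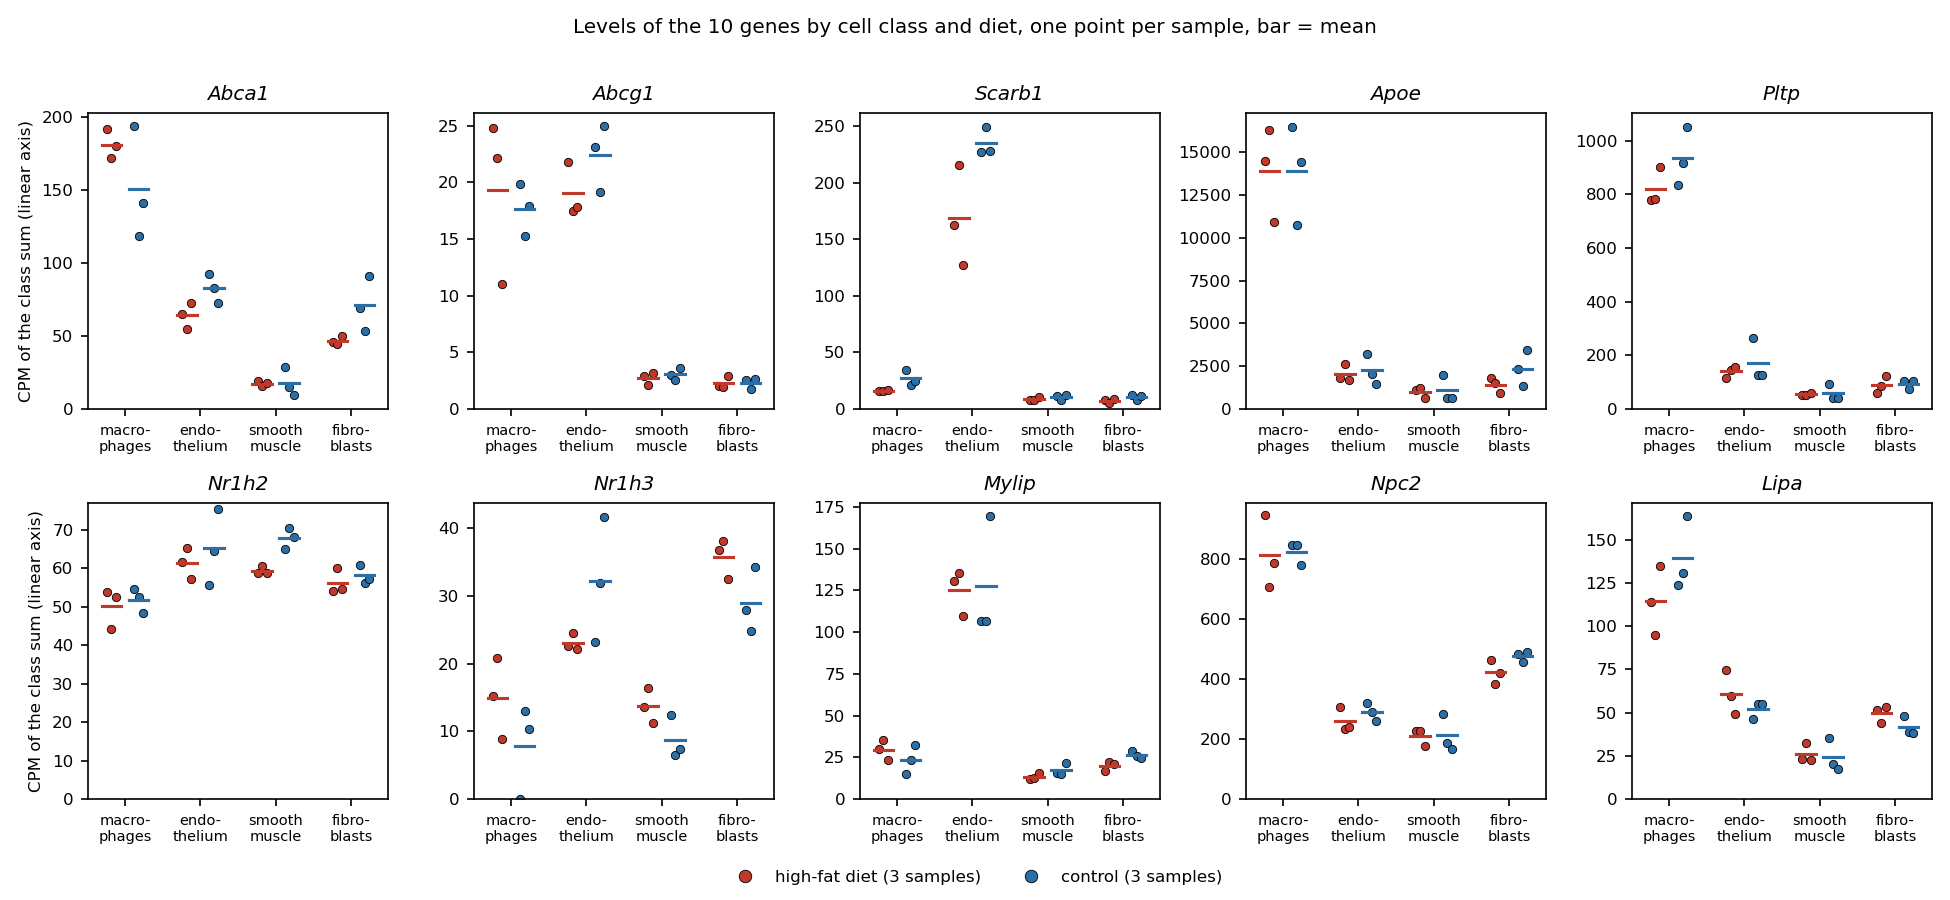
Level of each gene in CPM (y axis, from 0) by cell class (x axis), with 1 point per sample, high-fat diet to the left of control, and bars at group means. Abca1, Apoe, Pltp, Npc2 and Lipa stand highest in macrophages in 6 of 6 samples, Scarb1 and Mylip in endothelium in 6 of 6.

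Abca1, the transporter that loads cholesterol onto apolipoprotein A-I, had 191.2, 171.8 and 179.6 CPM in macrophages of the high-fat diet samples, against 193.3, 118.1 and 141.0 CPM in those of the controls. Its endothelial levels were 65.3, 54.8 and 72.7 CPM on high-fat diet, against 92.5, 82.5 and 72.5 CPM in controls. Its fibroblast levels were 45.9, 44.6 and 50.01 CPM on high-fat diet, against 69.1, 53.6 and 91.0 CPM in controls. The lowest macrophage sample thus lay above the highest sample of either other class. Smooth muscle had the least, with 15.7 to 19.0 CPM on high-fat diet and 9.83 to 28.7 CPM in controls. The macrophage difference was 2.14 ± 0.14 (SE) on the log2 scale (edgeR adjusted p = 5.84e-11), and the smooth muscle difference was -2.34 ± 0.17 (edgeR adjusted p = 2.55e-10). Endothelium and fibroblasts did not differ detectably in Abca1 (0.22 ± 0.19, edgeR adjusted p = 0.366). The Abca1 gene lies on chromosome 4, 53030787 to 53159895, minus strand (GENCODE vM21, GRCm38).

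Abcg1, which passes cholesterol to HDL, had a different distribution. Its macrophage levels were 24.9, 22.1 and 11.1 CPM on high-fat diet, against 19.8, 15.3 and 17.9 CPM in controls. Its endothelial levels were 21.8, 17.5 and 17.8 CPM on high-fat diet, against 23.1, 19.2 and 25.0 CPM in controls. The 2 classes overlapped, with endothelium higher in 4 of 6 samples. Macrophages minus endothelium was 0.06 ± 0.19 on the log2 scale (edgeR adjusted p = 0.903), and each of the 2 stood above the mean of the other 3 classes (1.96 ± 0.15 and 1.88 ± 0.15, edgeR adjusted p = 8.91e-11 and 5.26e-10). Smooth muscle and fibroblasts held 1.76 to 3.59 CPM in all their sums. T cells and B cells, set beside macrophages of the same sample, held a median of 102.7% and 91.4% of the macrophage Abcg1 level.

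Scarb1, the HDL receptor, was an endothelial transcript in this tissue. Endothelium had 162.9, 215.8 and 127.2 CPM on high-fat diet, against 226.7, 249.3 and 228.2 CPM in controls. Macrophages had 15.9, 15.6 and 17.1 CPM on high-fat diet, against 34.7, 21.4 and 25.1 CPM in controls. Smooth muscle and fibroblasts were lower still, at 5.49 to 12.4 CPM, and did not differ detectably from each other (0.19 ± 0.15, edgeR adjusted p = 0.290). The endothelial difference was 3.88 ± 0.11 (edgeR adjusted p = 3.90e-18), the largest of the 40 gene-by-class differences. Macrophages were above smooth muscle by 1.21 ± 0.17 and above fibroblasts by 1.401 ± 0.17 on the log2 scale (edgeR adjusted p = 1.45e-06 and 2.47e-07).

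Apoe, the apolipoprotein E that macrophages secrete, had 14482, 16283 and 10910 CPM in macrophages on high-fat diet, against 16504, 10725 and 14419 CPM in controls. Endothelium had 1717.4 to 2605.5 CPM on high-fat diet and 1475.9 to 3224.7 CPM in controls. Fibroblasts had 960.0 to 1818.9 CPM on high-fat diet and 1349.1 to 3433.1 CPM in controls. Every macrophage sum lay above every sum of the other classes, and the macrophage difference was 3.31 ± 0.17 (edgeR adjusted p = 1.01e-11). Endothelium and fibroblasts did not differ detectably in Apoe (0.08 ± 0.24, edgeR adjusted p = 0.801). The lower call of Apoe in endothelium (-0.64 ± 0.20, edgeR adjusted p = 0.0123) was lost without high-fat diet 1 (edgeR adjusted p = 0.0571).

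Pltp, the phospholipid transfer protein that remodels HDL, had 777.3, 782.3 and 903.0 CPM in macrophages on high-fat diet, against 832.6, 915.1 and 1052 CPM in controls. The 3 other classes ranged between 41.3 and 263.7 CPM. The macrophage difference of 3.47 ± 0.12 (edgeR adjusted p = 9.31e-16) was the largest of this class among the 10 genes. Endothelium stood above fibroblasts by 0.58 ± 0.17 and above smooth muscle by 1.24 ± 0.17 (edgeR adjusted p = 0.00617 and 2.65e-06). Its lower call in endothelium against the other 3 classes (-0.35 ± 0.14, edgeR adjusted p = 0.0462) was lost without a filter on low counts, under stricter marker limits, in cells of at least 2000 UMIs and without any 1 of 5 samples (edgeR adjusted p between 0.0537 and 0.471).

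The 2 LXR genes were distributed unlike the transporters. Nr1h3 had 36.8, 38.1 and 32.5 CPM in fibroblasts on high-fat diet, against 27.9, 24.8 and 34.3 CPM in controls. Its endothelial levels were 22.5, 24.5 and 22.2 CPM on high-fat diet, against 23.1, 32.0 and 41.6 CPM in controls. Lymphatic endothelial cells are part of this class. Macrophages had 15.2, 20.8 and 8.93 CPM on high-fat diet, against 0, 12.98 and 10.3 CPM in controls, where the 0 of control 1 rests on few cells and allows a level of up to 14.9 CPM (3 counts, counting error only). The macrophage level was therefore below the fibroblast level in all 6 samples. Nr1h3 was higher in fibroblasts (0.97 ± 0.16, edgeR adjusted p = 2.23e-05) and endothelium (0.63 ± 0.20, edgeR adjusted p = 0.0142), and lower in smooth muscle (-1.03 ± 0.18, edgeR adjusted p = 4.05e-05). The endothelial call was lost without control 3 (0.40, edgeR adjusted p = 0.136). The lower call in macrophages (-0.57 ± 0.22, edgeR adjusted p = 0.0308) was lost when any 1 of 4 samples was left out, high-fat diet 1 and 3 and control 1 and 3 (edgeR adjusted p between 0.0551 and 0.120). Fibroblasts did not differ detectably from endothelium, nor macrophages from smooth muscle (edgeR adjusted p = 0.349 and 0.234).

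Nr1h2 ranged between 44.3 and 75.4 CPM over all 24 sums. Smooth muscle had 58.8, 60.5 and 58.8 CPM on high-fat diet, against 65.1, 70.5 and 68.1 CPM in controls. Its difference from the other classes was 0.17 ± 0.06 (edgeR adjusted p = 0.0204), and this call was lost in cells of at least 2000 UMIs and without high-fat diet 1 or any single control (edgeR adjusted p between 0.0521 and 0.0678). No pair among the other 3 classes passed the test for Nr1h2.

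Mylip, the receptor-degrading ligase, was led by endothelium, as Scarb1 was. Endothelium had 130.7, 135.3 and 109.4 CPM on high-fat diet, against 106.4, 106.3 and 169.4 CPM in controls. The other 3 classes ranged between 11.96 and 35.1 CPM, with no overlap with endothelium. The endothelial difference was 2.40 ± 0.11 (edgeR adjusted p = 7.32e-15). Macrophages were above smooth muscle by 0.96 ± 0.15 and above fibroblasts by 0.40 ± 0.15 (edgeR adjusted p = 5.95e-06 and 0.0238).

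The lysosomal pair was highest in macrophages and present throughout. Npc2 had 947.8, 706.8 and 785.5 CPM in macrophages on high-fat diet, against 847.5, 846.2 and 778.9 CPM in controls, and 384.7 to 464.3 CPM in fibroblasts on high-fat diet, against 456.1 to 488.8 CPM in controls. Both classes were above the mean of the others (macrophages 1.64 ± 0.07, fibroblasts 0.30 ± 0.08, edgeR adjusted p = 8.02e-15 and 0.00190). Lipa had 113.9, 95.0 and 135.0 CPM in macrophages on high-fat diet, against 123.9, 130.6 and 163.8 CPM in controls. Its macrophage difference was 1.88 ± 0.13 (edgeR adjusted p = 3.98e-11), and the other classes lay between 17.4 and 74.3 CPM. Its lower call in fibroblasts (-0.36 ± 0.13, edgeR adjusted p = 0.0231) was lost without a filter on low counts and without control 2 (edgeR adjusted p = 0.0523 and 0.0535).

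**Figure D2:**
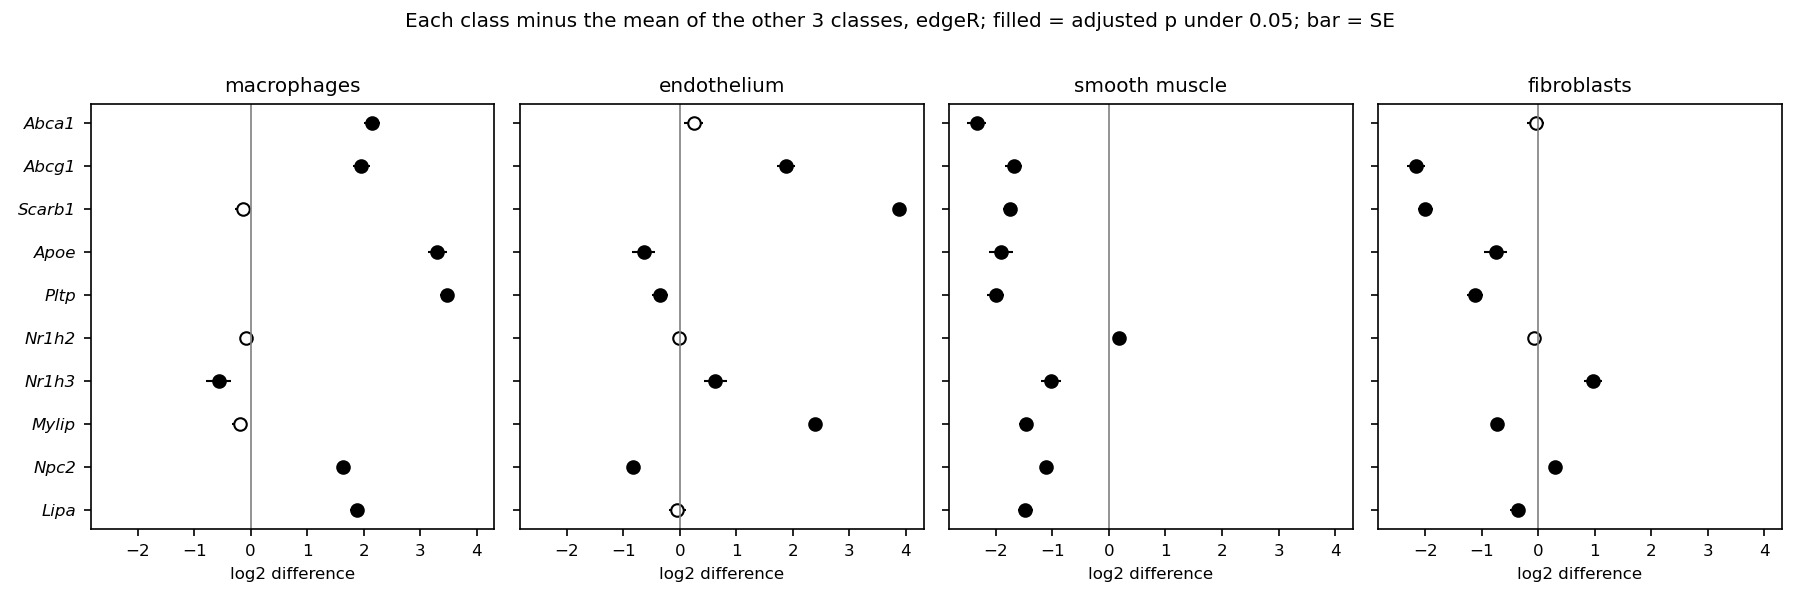
Log2 difference of each class from the mean of the other 3 (x axis) for each gene (rows), with SE bars and filled points where the edgeR adjusted p was under 0.05. Pltp (3.47), Apoe (3.31) and Abca1 (2.14) lie far right in macrophages, Scarb1 (3.88) and Mylip (2.40) in endothelium, and 9 of 10 genes lie left of 0 in smooth muscle.

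Free RNA of lysed cells gives low counts in every droplet, so the levels outside macrophages were set against 4 genes that mark resident macrophages (Folr2, F13a1, Cbr2 and Cd163). These 4 stood at a median of 3.41% of their macrophage level in endothelium, 3.21% in fibroblasts, 8.70% in smooth muscle, 3.72% in T cells and 3.59% in B cells. Apoe stood at 15.9% in endothelium, 12.6% in fibroblasts, 6.88% in smooth muscle, 5.23% in T cells and 6.12% in B cells. The Apoe percent was thus above that of the 4 genes in endothelium, fibroblasts, T cells and B cells, and below it in smooth muscle. Pltp stood at 16.2% in endothelium, 10.5% in fibroblasts, 6.71% in smooth muscle, 4.46% in T cells and 5.90% in B cells. Abca1 stood at 44.2% in endothelium and 31.8% in fibroblasts, and at 9.86% in smooth muscle, close to the 8.70% of the 4 genes there. It stood at 3.61% in T cells and 16.0% in B cells. T cells and B cells were gated as a background for free RNA. An excess over the 4 genes therefore does not by itself show expression in a class, and its source was not tested. The 8 markers that define macrophages gave a lower measure, since they summed to a median of 665 CPM in smooth muscle on high-fat diet and 285 CPM in that of controls, beside 17256 CPM in macrophages on high-fat diet and 16421 CPM in those of controls. Cells rich in these 8 markers were kept out of smooth muscle by the marker rule. Whether the smooth muscle levels of Apoe, Pltp and Abca1 exceed free RNA therefore depends on the marker list. With each cell thinned to 1000 UMIs, 96.4% ± 1.33 of macrophages on high-fat diet and 96.9% ± 3.01 of control macrophages had an Apoe UMI (SD, n = 3 each), and so did 48.4% ± 4.25 of T cells on high-fat diet and 49.3% ± 27.2 of control T cells. T cells had median depths of 2941 to 3648.5 UMIs and macrophages of 2639.0 to 3619.0 UMIs, and in control 1 T cells were deeper (3648.5 UMIs) than macrophages (2663.5 UMIs). Before thinning, the shares were 98.8% of macrophages on high-fat diet and 99.1% of control macrophages, and 84.5% of T cells on high-fat diet and 80.2% of control T cells.

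**Figure D3:**
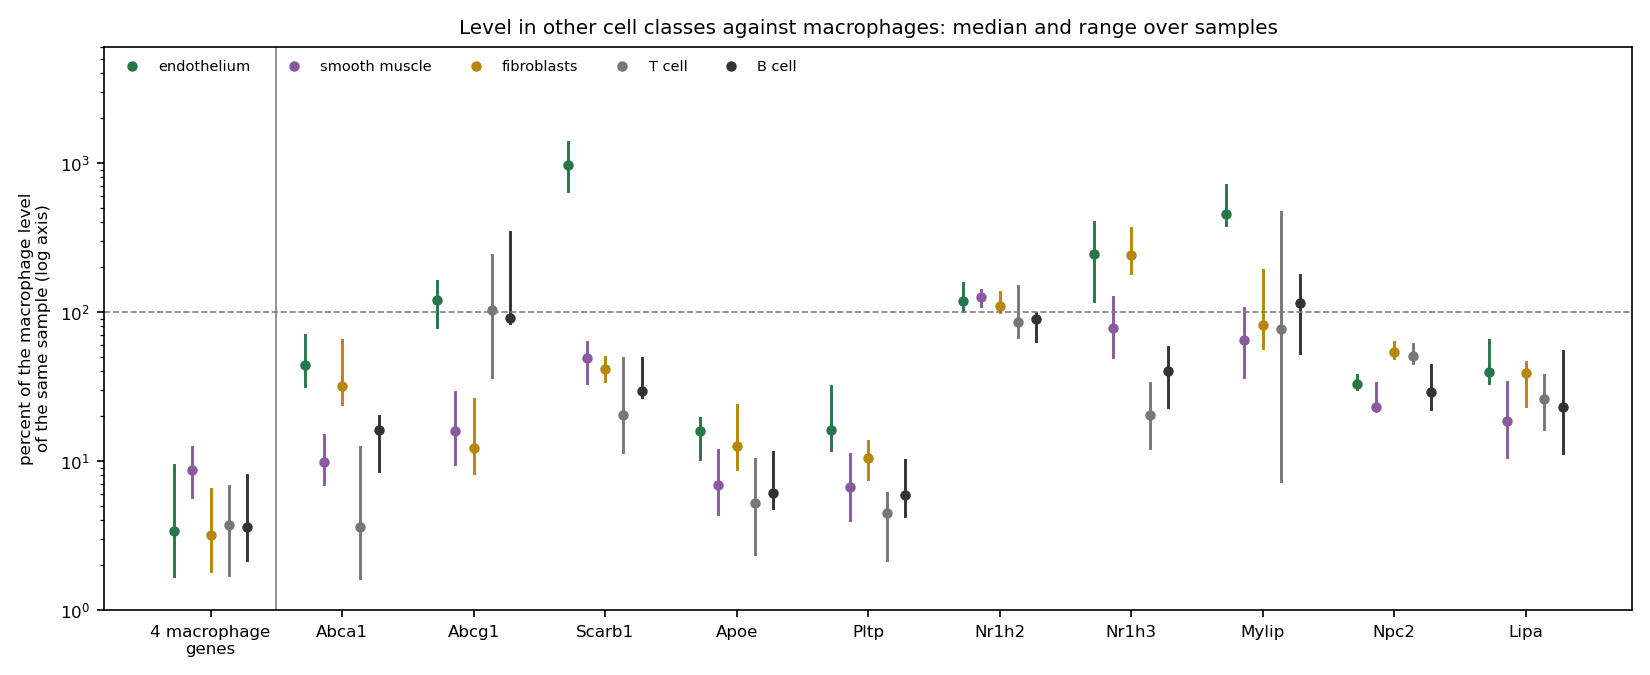
Level in 5 other classes as a percent of the macrophage level of the same sample (y axis, log scale), for 4 macrophage genes and the 10 genes (x axis), with points at medians and lines over the range of samples (for Nr1h3 without control 1, where the macrophage level was 0). The 4 macrophage genes lie at medians of 3.21% to 8.70%, Apoe in smooth muscle lies at 6.88%, and Scarb1 in endothelium lies far above the dashed line at 100%.

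Endothelium was split by markers into cells with arterial genes and cells with capillary genes. Arterial cells numbered 29, 17 and 64 on high-fat diet and 4, 61 and 34 in controls, and capillary cells 226, 190 and 431 on high-fat diet and 39, 177 and 325 in controls. The 4 samples with at least 20 cells of both kinds entered the test, which left out high-fat diet 2 and control 1. Apoe and Npc2 were higher in arterial cells, and Scarb1, Mylip and Pltp were higher in capillary cells. These 5 of 10 passed, where 13.3% of 6883 genes were higher and 11.3% lower in arterial cells (edgeR, sample as a block).

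Scarb1 had 27.2, 42.9 and 15.6 CPM in arterial cells on high-fat diet and 0, 12.6 and 0 CPM in arterial cells of controls. In capillary cells it had 231.0, 285.5 and 164.9 CPM on high-fat diet and 300.9, 435.9 and 296.1 CPM in controls. The lowest capillary sum lay above the highest arterial one. Arterial minus capillary was -4.27 ± 0.33 on the log2 scale (edgeR adjusted p = 1.34e-09), a fitted value that rests on 0 to 5 arterial UMIs per sample. For control 3, a count of 0 allows up to 19.4 CPM, and for control 1 up to 135.7 CPM. Apoe went the other way, with 4521.1, 12128 and 4173.5 CPM in arterial cells on high-fat diet and 4252.8, 4343.1 and 2714.5 CPM in arterial cells of controls. In capillary cells Apoe had 1004.1, 1429.3 and 1145.6 CPM on high-fat diet and 2642.7, 1040.3 and 1120.9 CPM in controls. The Apoe difference was 1.89 ± 0.12 (edgeR adjusted p = 7.88e-10), and the arterial level was higher in 6 of 6 samples. Mylip differed by -1.32 ± 0.22, Pltp by -1.24 ± 0.21 and Npc2 by 0.62 ± 0.14 (edgeR adjusted p = 4.50e-05, 6.88e-05 and 0.00139). Abca1 (-0.21 ± 0.25), Abcg1 (-0.42 ± 0.45), Nr1h2 (0.02 ± 0.25), Nr1h3 (-0.33 ± 0.40) and Lipa (-0.55 ± 0.27) did not pass.

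**Figure D4:**
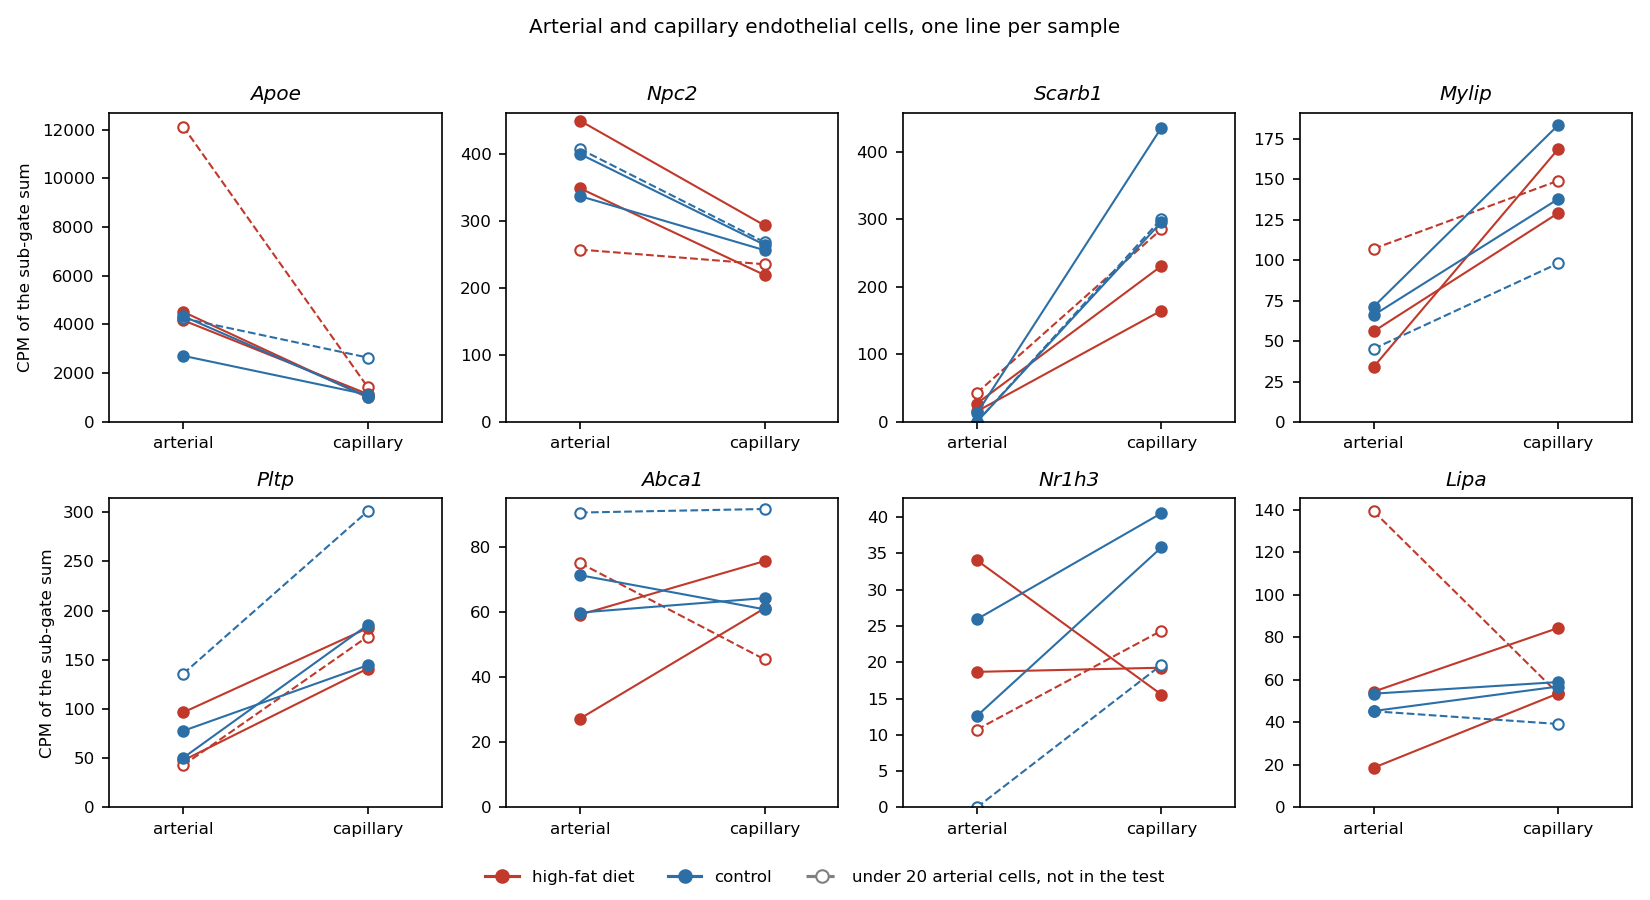
Level in CPM (y axes, from 0) of 8 of the 10 genes in arterial and capillary endothelial cells (x axes), with 1 line per sample and open points on dashed lines for the 2 samples with under 20 arterial cells. Scarb1 lies at 0 to 42.9 CPM in arterial cells and 164.9 to 435.9 CPM in capillary cells, and Apoe is higher in arterial cells in each sample.

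Within macrophages, only control 2 had 20 or more monocyte-like cells (61 cells by Ccr2, Ly6c2 and related markers), so resident and monocyte-like cells could not be tested against each other. In that sample resident cells had 12245 CPM of Apoe and monocyte-like cells 1856.4 CPM. Resident cells had 136.3 CPM of Abca1 and monocyte-like cells 22.9 CPM (8 UMIs), and Pltp was 1014.1 CPM in resident and 383.9 CPM in monocyte-like cells. Abcg1 was 10.8 CPM (70 UMIs) in resident cells and 37.2 CPM (13 UMIs) in monocyte-like cells, so the 2 transporters lay in opposite order in this sample. Npc2 was 840.8 CPM in resident and 836.5 CPM in monocyte-like cells, and Lipa was 138.1 CPM in resident and 117.5 CPM in monocyte-like cells. This describes 1 sample, with no replicate check.

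The second question was whether the diet moved the pathway. None of the 10 genes passed the test of diet in any class (edgeR, adjusted over all genes of the class). Over all genes, 0.0528% of 9467 passed in macrophages, 0.113% of 9740 in endothelium, 0% of 13738 in smooth muscle and 0.0526% of 13310 in fibroblasts. At an unadjusted p under 0.05, 7 of the 40 gene-by-class tests remained, namely 1 in macrophages, 2 in endothelium, 1 in smooth muscle and 3 in fibroblasts. The share of all genes at that level was 9.08%, 10.5%, 9.03% and 11.3% in the same order. With DESeq2 no member passed either, and its smallest adjusted p was 0.122 (Abca1 in fibroblasts). Log2 fold changes of the 10 genes had a median of -0.04 in macrophages, -0.21 in endothelium, -0.05 in smooth muscle and -0.17 in fibroblasts, beside 0.02, 0.01, -0.01 and 0.00 over all genes. In endothelium 9 of the 10 values were negative and in fibroblasts 8 of 10, against 6 of 10 in macrophages and in smooth muscle.

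Scarb1 had a negative diet value in all 4 classes. In macrophages it averaged 16.2 ± 0.81 CPM on high-fat diet and 27.0 ± 6.87 CPM in controls (SD, n = 3 each), with no overlap between the groups. The log2 fold change was -0.65 ± 0.22 (edgeR adjusted p = 0.378). In endothelium it averaged 169 ± 44.6 CPM on high-fat diet and 235 ± 12.6 CPM in controls, again with no overlap (-0.55 ± 0.19, edgeR adjusted p = 0.370). Groups without overlap occurred in 14.2% of all genes in macrophages and in 15.8% in endothelium. In fibroblasts Scarb1 averaged 7.26 ± 1.58 CPM on high-fat diet and 10.4 ± 2.21 CPM in controls (-0.53 ± 0.22, edgeR adjusted p = 0.444). The smooth muscle value of -0.24 ± 0.24 turned to 0.16 when control 1 and control 3 were left out, and the fibroblast value became -0.27. Within capillary cells the Scarb1 value was -0.67 ± 0.22 (edgeR adjusted p = 0.299), where 0.145% of 8252 genes passed and 10.9% had an unadjusted p under 0.05. Within resident macrophages it was -0.61 ± 0.25 (edgeR adjusted p = 0.457), where 0.11% of 9105 genes passed and 9.6% had an unadjusted p under 0.05.

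Abca1 had diet values of opposite sign in macrophages and fibroblasts. In macrophages it averaged 181 ± 9.76 CPM on high-fat diet and 151 ± 38.5 CPM in controls, and the groups overlapped (0.28 ± 0.17, edgeR adjusted p = 0.679). In fibroblasts it averaged 46.9 ± 2.81 CPM on high-fat diet and 71.2 ± 18.8 CPM in controls, without overlap (-0.64 ± 0.18, edgeR adjusted p = 0.302), where 16.5% of all genes had no overlap. Without control 3, the highest sample, the fibroblast value was -0.41 (edgeR unadjusted p under 0.05), and without control 1 and control 3 it was -0.35. Endothelium showed -0.36 ± 0.19 (edgeR adjusted p = 0.518) and smooth muscle 0.02 ± 0.31. The share of macrophages with an Abca1 UMI, with cells thinned to 1000 UMIs, was 19.2% ± 1.89 on high-fat diet and 12.9% ± 0.93 in controls, and in T cells it was 1.25% ± 0.60 on high-fat diet and 0.34% ± 0.38 in controls (SD, n = 3 each). At 2000 UMIs the macrophage shares overlapped, at 28.5% ± 2.20 on high-fat diet and 27.4% ± 7.55 in controls. They also overlapped without thinning, at 40.1% ± 3.28 on high-fat diet and 38.2% ± 2.98 in controls. Such shares were compared for 40 gene and class pairs, and the smallest p that 3 against 3 samples allow, 0.1 (exact two-sided permutation test), became 0.571 after adjustment over the 40.

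Nr1h3 averaged 23.1 ± 1.25 CPM in endothelium on high-fat diet and 32.2 ± 9.25 CPM in controls (-0.67 ± 0.24, edgeR adjusted p = 0.388). In smooth muscle it averaged 13.7 ± 2.56 CPM on high-fat diet and 8.79 ± 3.19 CPM in controls (0.68 ± 0.24, edgeR adjusted p = 0.513). The groups overlapped in both classes. In fibroblasts it averaged 35.8 ± 2.92 CPM on high-fat diet and 29.0 ± 4.84 CPM in controls (0.26 ± 0.15, edgeR adjusted p = 0.555). In capillary cells it averaged 19.7 ± 4.41 CPM on high-fat diet and 32.0 ± 10.96 CPM in controls (-0.94 ± 0.29, edgeR adjusted p = 0.276). Nr1h2 in smooth muscle, at 59.4 ± 0.96 CPM on high-fat diet and 67.9 ± 2.68 CPM in controls, had no overlap, as did 15.4% of all genes there, and its value was -0.19 ± 0.12 (edgeR adjusted p = 0.666). Nr1h2 was -0.11 ± 0.18 in macrophages, -0.20 ± 0.18 in endothelium and -0.09 ± 0.10 in fibroblasts, and Nr1h3 was 0.13 ± 0.41 in macrophages (edgeR adjusted p between 0.755 and 0.984). Without control 1 and control 3 the Nr1h3 value was -0.55 in endothelium and 1.04 in smooth muscle. The endothelial class includes lymphatic cells. Over 16 alternative settings, among them endothelium without lymphatic cells, the endothelial Nr1h3 value ran between -0.78 and -0.44.

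Mylip averaged 19.9 ± 2.63 CPM in fibroblasts on high-fat diet and 26.3 ± 2.01 CPM in controls (-0.45 ± 0.13, edgeR adjusted p = 0.302). Its groups had no overlap, as did 16.5% of all genes there. In endothelium, where it is highest, it averaged 125 ± 13.8 CPM on high-fat diet and 127 ± 36.4 CPM in controls (-0.13 ± 0.21, edgeR adjusted p = 0.889). Apoe in macrophages averaged 13891 ± 2735 CPM on high-fat diet and 13883 ± 2927 CPM in controls (-0.02 ± 0.26, edgeR adjusted p = 1.00). In fibroblasts Apoe averaged 1431 ± 435 CPM on high-fat diet and 2367 ± 1043 CPM in controls (-0.76 ± 0.37, edgeR adjusted p = 0.505). This Apoe value was -0.36 without control 3 (edgeR adjusted p = 0.869) and -0.07 without control 1 and control 3, since control 2 alone had 1349.1 CPM. Apoe was -0.17 ± 0.25 in endothelium and -0.07 ± 0.45 in smooth muscle, and Mylip was 0.00 ± 0.26 in macrophages and -0.39 ± 0.22 in smooth muscle (edgeR adjusted p between 0.625 and 1.00). Pltp, Npc2, Lipa and Abcg1 had values between -0.36 and 0.22 in the 4 classes, with edgeR adjusted p of 0.555 or more. Within resident macrophages the Lipa value was -0.51 ± 0.21 (edgeR adjusted p = 0.450). Its unadjusted p was under 0.05, as was that of 9.6% of 9105 genes there.

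**Figure D5:**
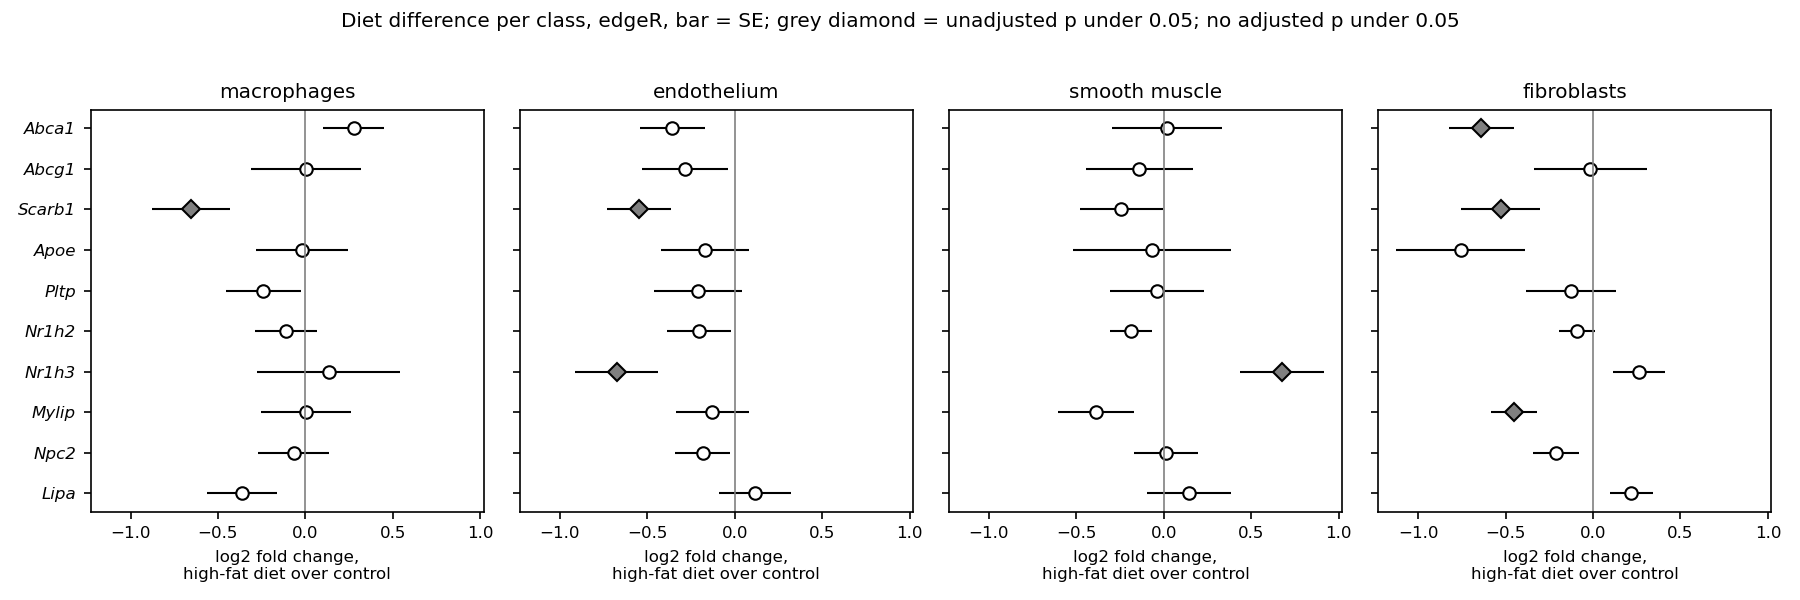
Log2 fold change of high-fat diet over control (x axis) for each gene (rows) in each class, with SE bars and grey diamonds where the unadjusted edgeR p was under 0.05. The 7 diamonds are Scarb1 in 3 classes, Nr1h3 in endothelium (-0.67) and smooth muscle (0.68), and Abca1 and Mylip in fibroblasts, and no adjusted p is under 0.05.

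Summed markers of other cells did not overlap between the diets in several of the same sums. The lists below were picked for this, and single genes had no overlap in 14.2% to 16.5% of all genes by class. Pericyte and lipid-laden macrophage markers, for example, overlapped in macrophages, endothelium and fibroblasts. Pericyte markers summed to 372.0 to 443.2 CPM in endothelium on high-fat diet and 180.4 to 483.5 CPM in controls. A list of 6 adipocyte markers (Adipoq, Cfd, Plin1, Cidec, Lep and Retn) summed to 16.5 to 33.8 CPM in endothelium on high-fat diet and 55.5 to 583.7 CPM in controls. In macrophages it summed to 9.66 to 19.5 CPM on high-fat diet and 25.3 to 91.8 CPM in controls. In smooth muscle it summed to 2.80 to 14.5 CPM on high-fat diet and 27.7 to 109.2 CPM in controls. The groups did not overlap in these 3 classes, and in fibroblasts the highest high-fat diet sample (25.16 CPM) lay just under the lowest control (25.22 CPM). At least 1 of the 6 markers was at 0 in endothelium of 5 of the 6 samples. Haemoglobin and Alas2 transcripts of red cells summed to 18422 to 38038 CPM in smooth muscle on high-fat diet and 2087.8 to 11395 CPM in controls. T cell markers summed to 13.9 to 28.9 CPM in smooth muscle on high-fat diet and 30.6 to 53.7 CPM in controls, and monocyte markers to 197 to 250.4 CPM on high-fat diet and 252 to 492 CPM in controls. Dendritic cell markers summed to 10.8 to 15.8 CPM in fibroblasts on high-fat diet and 16.1 to 18.9 CPM in controls. The part of these transcripts in the diet values was not tested.

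Whether the diet value itself differed between classes was tested with an interaction term over the 24 sums. None of 13859 genes passed (edgeR, 0% called, 3.74% at an unadjusted p under 0.05). Abca1 and Nr1h3 were the 2 of the 10 genes with an unadjusted p under 0.05 (both edgeR adjusted p = 1.00). The Abca1 diet value was higher in macrophages than in fibroblasts by 0.90 ± 0.30 on the log2 scale (edgeR adjusted p = 0.961), where 4.86% of all genes had an unadjusted p under 0.05. The Nr1h3 value was lower in endothelium than in smooth muscle (log2 difference -1.29 ± 0.38, edgeR adjusted p = 1), where 3.65% did. Without control 1 neither passed (edgeR adjusted p = 0.125 for Abca1 and 0.104 for Nr1h3).

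The rest of the pathway was counted from 6 lists. No gene of any list passed the test of diet in any class. Of 12 other LXR target genes, 11 were tested in macrophages, smooth muscle and fibroblasts and 10 in endothelium. Their diet values were negative for 10 of 11, 9 of 11, 9 of 11 and 7 of 10 in that order, with medians of -0.37, -0.23, -0.21 and -0.22. Those with the smallest p in each class were enzymes of fatty acid synthesis and desaturation, lipoprotein lipase and an apolipoprotein. Scd1, a stearoyl-CoA desaturase, averaged 13.2 ± 1.24 CPM in macrophages on high-fat diet and 24.6 ± 5.25 CPM in controls (-0.90 ± 0.24, edgeR adjusted p = 0.291). Fasn, fatty acid synthase, had values of -1.32 ± 0.42 in endothelium, -0.60 ± 0.16 in smooth muscle and -0.67 ± 0.23 in fibroblasts (edgeR adjusted p = 0.370, 0.446 and 0.375). Lpl in macrophages (-0.46 ± 0.20), Scd2 in endothelium (-0.67 ± 0.23) and smooth muscle (-0.59 ± 0.23) and Apoc1 in fibroblasts (-1.03 ± 0.61) did not pass either.

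Among 8 partners and co-regulators of LXR, diet values were positive for 3 of 7 tested in macrophages, 2 of 7 in endothelium, 3 of 8 in smooth muscle and 4 of 8 in fibroblasts, with medians of -0.08, -0.10, -0.10 and 0.00. Ncor1, a co-repressor and the list gene with the smallest p, had positive values in all 4 classes. It averaged 149.5 ± 12.96 CPM in macrophages on high-fat diet and 111 ± 32.8 CPM in controls, and 189.6 ± 18.5 CPM in fibroblasts on high-fat diet and 119.8 ± 26.2 CPM in controls. The values were 0.47, 0.55, 0.54 and 0.64 in macrophages, endothelium, smooth muscle and fibroblasts (each with an unadjusted p under 0.05, the smallest edgeR adjusted p = 0.228). The gene with the next smallest p was Nrip1 in macrophages (0.33) and smooth muscle (0.30), Ncoa2 in endothelium (0.26) and Rxrb in fibroblasts (0.34). For each further list up to 2 genes with the smallest p in each class are named, and these had an edgeR adjusted p of 0.210 or more. Lysosomal sterol genes had medians of 0.21, 0.24, 0.05 and -0.02 in the same order, and targets of SREBP2, the factor that turns on cholesterol synthesis when sterol is low, had medians of 0.21, 0.13, -0.11 and 0.16. SREBP2 targets in fibroblasts were positive for 12 of 14, none with an unadjusted p under 0.05. Of the lysosomal genes, Scarb2, a lysosomal membrane protein, was 0.34 in macrophages, 0.33 in endothelium, 0.31 in smooth muscle and 0.28 in fibroblasts. Beside it stood Smpd1, acid sphingomyelinase, in macrophages (-0.41), Lamp2 in endothelium (0.24), and Lamp1 in smooth muscle (0.38) and fibroblasts (0.22). Of the SREBP2 targets, Fdps, farnesyl diphosphate synthase, was 0.74 in macrophages, 0.49 in endothelium and 0.54 in fibroblasts. Beside it stood Insig1 in macrophages (0.35) and Fdft1 in endothelium (-0.37) and smooth muscle (-0.35). Esterification and oxysterol enzymes had medians of 0.12, 0.36, 0.07 and -0.09, and uptake receptors -0.09, -0.06, -0.05 and -0.08. Lipe, hormone-sensitive lipase, was 0.40 in macrophages, 0.48 in endothelium and -0.28 in fibroblasts, and Cyp27a1, sterol 27-hydroxylase, was -0.19 in macrophages and -0.71 in fibroblasts. Ch25h in endothelium was 0.64, Cyp7b1 in smooth muscle -0.60 and Nceh1 in smooth muscle 0.33. Among uptake receptors, Lrp1 was 0.23 in macrophages, Vldlr -0.51 and Stab1 -0.33 in endothelium, Cd36 0.73 and Lrp8 0.66 in smooth muscle, and Cd36 0.23 in fibroblasts. Vldlr, an uptake receptor, averaged 57.8 ± 5.40 CPM in fibroblasts on high-fat diet and 81.3 ± 9.46 CPM in controls (-0.53 ± 0.11, edgeR adjusted p = 0.210).

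The same lists differed between classes. Over all genes tested, 29.9% were higher and 35% lower in macrophages, 24.6% and 27.9% in endothelium, 31% and 30.2% in smooth muscle, and 29.5% and 29.4% in fibroblasts. Of 8 lysosomal sterol genes, 6 were higher and 1 lower in macrophages, 0 higher and 6 lower in endothelium, 2 higher and 5 lower in smooth muscle, and 4 higher and 2 lower in fibroblasts. Of 7 esterification and oxysterol enzymes tested, 4 were higher and 2 lower in macrophages, 2 and 2 in endothelium, 0 and 5 in smooth muscle, and 3 and 3 in fibroblasts. The macrophage list was led by Ch25h, which makes 25-hydroxycholesterol (log2 difference 3.13). Of 6 uptake receptors tested, 4 were higher and 1 lower in macrophages, 2 and 4 in endothelium, 3 and 3 in smooth muscle, and 2 and 3 in fibroblasts, with the scavenger receptor Msr1 in macrophages (5.81), Cd36 in endothelium (4.12), Vldlr in smooth muscle (2.54) and Lrp1 in fibroblasts (2.53) each leading its class. Of 14 SREBP2 targets, 3 were higher and 3 lower in macrophages, 1 and 6 in endothelium, 8 and 2 in smooth muscle, and 2 and 3 in fibroblasts. Of 11 other LXR targets, 4 were higher and 4 lower in macrophages, 4 and 1 in endothelium, 3 and 7 in smooth muscle, and 5 and 4 in fibroblasts. Of 7 partners and co-regulators, 3 were higher and 1 lower in macrophages, 1 and 4 in endothelium, 1 and 1 in smooth muscle, and 3 and 1 in fibroblasts.

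Likeness to 3 of the genes was described over the 24 sums, among 6274 genes averaging 20 CPM or more, where the points share samples and classes. Abca1 was most like Hfe (Pearson r = 0.961), Rgl1 (0.955), Renbp (0.945), Itm2b (0.942) and Slco2b1 (0.942). Apoe was most like Tmem176b (0.959), Hmox1 (0.955), Dab2 (0.954), Tmem176a (0.954) and Rab8b (0.953). Nr1h3 had weaker likeness, with Prosc (0.903), Rpa3 (0.899), Scamp3 (0.885), Nip7 (0.875) and Agap1 (0.871).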

How the data were processed

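Aortas were digested with collagenase and DNase, strained and freed of red cells, and 3′ transcript tags were made with version 2 gel beads, per the labels' protocols. The tool named is Cell Ranger 3.0 and the build mm10, per the submitters' processing notes. How cells were called is not given in the sources used here. The authors deposited raw UMI counts for each gene in each cell, with 2 gel-bead wells joined per sample.

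Cells with at least 300 genes and under 20% mitochondrial counts were kept, which left 59413 of 62838, and 1394 with a Scrublet score above 0.25 (2.35%) were left out as doublets (scanpy 1.11.5). A cell entered a class with at least 3 of its 8 marker genes, at least 2 more than of any other class, and fewer than 3 genes of B cell, T cell, neutrophil, mesothelial or Schwann panels (2 of the 6 T cell genes were not used here). Sub-gates needed at least 2 genes of 1 panel of 6 and 2 more than of the other. The 10 genes, the lists and the tests were chosen with earlier results of these data known. All 10 genes are described in every class, some by their range. Of each list, up to 2 genes with the smallest p in the diet test of each class are named. Between classes, the rule would name every list gene that passed, and only counts and leading genes are given. A few list genes that this rule would name, and a further marker list whose groups did not overlap in macrophages, endothelium and fibroblasts, are not reported here.

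Counts were summed per sample and class and fitted with edgeR 4.0.16 (TMM factors, default filter, robust quasi-likelihood), Benjamini-Hochberg adjusted over all genes. CPM use the plain UMI total of each sum. Where a count was 0, the level of 3 counts is given. The diet test was also run on simulated counts, with 100 genes changed at each fold, all drawn from genes averaging 20 CPM or more. Some of the 10 genes lay below that level, such as Nr1h3 in macrophages (mean 11.4 CPM) and Abcg1 in fibroblasts (2.32 CPM), so the recovery does not cover them. Recovery in macrophages was 54% of 2-fold and 98% of 4-fold changes (9267 genes, 10 false calls). Endothelium gave 55% and 98% (9472 genes, 17 false calls). Smooth muscle gave 56% and 97% (13539 genes, 17 false calls), and fibroblasts 59% and 95% (13117 genes, 9 false calls). Recovery with fewer changed genes, or at the level of each of the 10 genes, was not tested. An exact permutation test (two-sided) was used for shares of cells. Other settings tried were doublets kept, DESeq2 1.42.0, all genes unfiltered, a block for the replicate number, median-of-ratios factors, stricter marker limits (4 genes, 3 more than another class), Leiden clusters (resolution 1, 2000 variable genes, 30 components, 20 neighbours, igraph 0.11.9), cells of at least 2000 UMIs and each sample left out in turn. Leaving out control 1 with control 3, and endothelium without lymphatic cells, were chosen after seeing the data. Python 3.11.15 (numpy 2.4.6, scipy 1.17.1, pandas 2.3.3, matplotlib 3.10.9) and R 4.3.3 with limma 3.58.1 were used.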

Additional observations from a re-analysis of the deposited data

How the results depend on the processing

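Of 1270 alternative values for 105 results, 1127 were rated the same as the main value. For effects this meant the same direction and side of the threshold, and for counts of genes a set ratio to the main count. In every setting that kept more than 1 control, 0 of the 10 genes passed the diet test in any class. Over all genes, the diet test called 5 genes in macrophages, 11 in endothelium, 0 in smooth muscle (1241 at an unadjusted p under 0.05) and 7 in fibroblasts. In the same order, DESeq2 called 16, 26, 116 and 209, no filter on low counts 156, 172, 12 and 23, and leaving out control 1 with control 3 (chosen after seeing the data) 145, 40, 2 and 2. The counts without control 1 and control 3 rest on 1 control with no spread among controls. They cannot be compared with the counts of the other settings. Median-of-ratios factors gave 8 in macrophages, stricter limits 37 in macrophages and 28 in endothelium, clusters 0 in macrophages, 25 in endothelium and 0 in fibroblasts, and cells of at least 2000 UMIs 3 in macrophages. Correlations of deviations between samples that share a replicate number ran between -0.09 and 0.44, which does not settle whether the numbers pair the samples. With the number as a block the counts were 46 in macrophages, 3 in endothelium and 2 in fibroblasts, no call of the 10 genes changed, and 5, 2, 2 and 4 of 6 samples correlated best with their own number. Leaving out 1 sample gave 1 to 257 genes in macrophages, 0 to 34 in endothelium, 0 to 2 in smooth muscle and 0 to 5 in fibroblasts. The 257 and the 34 were without control 1, and the other 5 samples each left 1 to 2 in macrophages and 0 to 4 in endothelium. The 2 in smooth muscle were without control 3, and in fibroblasts each sample but control 1 left 0 to 1.

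Diet values of the 10 genes that changed sign passed no test in either sign where more than 1 control was kept. The cause of these changes was not tested. In macrophages Abcg1 (0.00) became -0.0193 with no filter, -0.10 with the block, -0.0213 with doublets kept and -0.0619 under stricter limits. Mylip (0.00) became -0.0185 with no filter, -0.0918 under stricter limits and -0.0288 with clusters. Apoe became 0.0722 and Npc2 0.0869 under stricter limits. In endothelium Lipa became -0.11 under stricter limits and Pltp 0.00179 with clusters. In smooth muscle Apoe became 0.0437 and Pltp 0.0339 with the block, and Apoe 0.0017 with clusters. In fibroblasts Abcg1 became 0.0848 under stricter limits, 0.19 with clusters and 0.0152 in cells of at least 2000 UMIs. Without control 1 and control 3, Apoe became 0.18 and Nr1h3 -0.14 in macrophages, Mylip 0.15 and Pltp 0.0925 in endothelium, Abcg1 0.0811, Apoe 0.55, Scarb1 0.16 and Pltp 0.39 in smooth muscle, and Abcg1 0.24 and Pltp 0.0744 in fibroblasts.

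Leaving out 1 sample in turn also changed signs. In macrophages Abcg1 ran between -0.29 and 0.39, Apoe between -0.17 and 0.12, Mylip between -0.13 and 0.22, Npc2 between -0.17 and 0.0187, and Nr1h3 between -0.12 and 0.57. In endothelium Apoe ran between -0.39 and 0.12, Pltp between -0.37 and 0.0945, Mylip between -0.27 and 0.19, and Lipa between -0.0477 and 0.26. In smooth muscle Apoe ran between -0.30 and 0.59, Pltp between -0.22 and 0.38, Abca1 between -0.23 and 0.46, Npc2 between -0.0877 and 0.21, Abcg1 between -0.28 and 0.0491, and Lipa between -0.0370 and 0.44. In fibroblasts Abcg1 ran between -0.21 and 0.11 and Pltp between -0.43 and 0.0810.

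Between classes, Nr1h2 in endothelium (-0.01) became 0.0330 under stricter limits and 0.00591 in cells of at least 2000 UMIs, and ran between -0.0688 and 0.0152 with a sample left out. Lipa in endothelium became 0.0196 under stricter limits and ran between -0.13 and 0.0141. Abca1 in fibroblasts became 0.0286 under stricter limits, ran between -0.27 and 0.0271, and was called lower without control 3 (edgeR adjusted p = 0.0385). The 1 gene called higher in smooth muscle was 0 in cells of at least 2000 UMIs and 0 to 1 with a sample left out. Arterial minus capillary ran between -0.69 and 0.0726 for Nr1h3 and between -0.30 and 0.23 for Nr1h2. Depth limits values that rest on few UMIs, such as 0 to 102 for Nr1h3 and 4 to 120 for Abcg1 per macrophage sum. Alternatives of resident against monocyte-like macrophages were not run, since 1 sample allows no test.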

Other observations

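The same genes were read in the 37 clusters of all cells, some of them outside the 4 classes. Values are means over the samples with at least 20 cells of that cluster. They are given as a description with no test, since the clusters were formed from the same counts. An endothelial cluster led by the lymphatic genes Ccl21a, Mmrn1 and Reln had 111 ± 24.9 CPM of Abca1 and 57.6 ± 14.5 CPM of Nr1h3, with only 9.18 ± 4.45 CPM of Scarb1. The endothelial cluster led by Gpihbp1, Fabp4 and Car4 had 269 ± 102 CPM of Scarb1 and 65.2 ± 15.5 CPM of Abca1, and the one led by Vwf, Bmx and Gja5 had 19.2 ± 5.15 CPM of Scarb1 and 4719 ± 815 CPM of Apoe. A mesothelial-like cluster led by Upk3b and Msln had 815 ± 174 CPM of Npc2, close to the 813 ± 75.6 CPM of the macrophage cluster with cells of all samples (SD, n = 6 for each).

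Fibroblast clusters were unlike each other in Apoe. The cluster led by Sfrp2, F3 and Fmod had 4024 ± 1707 CPM (n = 6), the one led by Dact2, Krtdap and Pi16 had 809.7 ± 545 CPM (n = 6), and the one led by Thbs4, Dkk2 and Angptl1 had 605 ± 439 CPM (n = 4). A cluster led by Ear2, Lyz1, Cd209a and Ccl17, outside the macrophage class, had 32.9 ± 6.86 CPM of Abcg1 but 13.02 ± 3.45 CPM of Abca1 and 988 ± 514 CPM of Apoe (n = 6). A cluster led by Ccl5, Nkg7 and Cd8b1 had 22.8 ± 10.5 CPM of Abcg1 and 12.1 ± 3.72 CPM of Abca1 (n = 6).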
